A study of Homo sapiens with 6 samples.

Results

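RUNX2, RUNX3, CBFB, RUNX1T1, CBFA2T2, CBFA2T3, NCOR1, SIN3A and HDAC3 are the paralogues, the obligate partner and the corepressors of the RUNX transcription factors, and their expression was compared in REH cells with and without knockdown of the ETV6/RUNX1 fusion. A member probe is a catalogue probe of the array whose RefSeq accession belongs to one of these genes. These 9 genes, of 19721 genes named for catalogue probes, carried 13 probes. A total of 9 of these probes, from 6 genes, were above background, and no member probe changed past an adjusted p of 0.05 (limma, Benjamini-Hochberg over 27454 probes, of which 1.75% were called, 1.27% lower and 0.477% higher). The largest difference among the 9 was in CBFA2T3, which stood at 0.662 of its control level. That difference passed the threshold once arrays of the same replicate number were paired, a fit that called 3.77% of all probes (2.39% lower).

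RUNX proteins bind DNA through the Runt domain, which they share, and recognise the bases TGTGGT. CBFB encodes core-binding factor beta, which does not touch DNA itself but raises the affinity of the Runt domain for it and protects RUNX proteins from degradation. RUNX1 is the family member of blood stem and progenitor cells, RUNX2 that of bone formation, and RUNX3 acts in T cells, natural killer cells and sensory neurons. RUNX1T1, CBFA2T2 and CBFA2T3, the ETO family, are scaffolds that bring NCOR1, SIN3A and histone deacetylases to transcription factors. In ETV6/RUNX1 the Runt domain of RUNX1 is kept and sits behind a piece of the repressor ETV6, and the fusion protein is known to recruit NCOR1, SIN3A and HDAC3.

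REH, an established cell line from a human acute lymphoblastic leukemia of B-cell precursors, carries ETV6/RUNX1 and has lost its other ETV6 allele. All 6 samples were REH cells transduced with a lentivirus that carried GFP and a short hairpin RNA (shRNA), sorted for GFP. In the 3 control samples the shRNA was labelled non-targeting, and per the study's methods it was a second ETV6 hairpin that did not hit the fusion transcript. In the 3 knockdown samples the shRNA was directed against the ETV6/RUNX1 fusion, through its ETV6 part. One hairpin per group and one cell line were used, so an effect of the hairpin sequence and an effect of losing the fusion cannot be told apart. The labels number the replicates 1 to 3 in each group without naming cultures, and the study calls them biological triplicates. P-values measure the spread between these samples.

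RNA was hybridised to 1-color Agilent arrays, 1 per sample, and values are given on a variance-stabilised log2 scale. On this scale 1 unit is close to a doubling at high signal but not near background. Raw median intensities of the 6 arrays ran from 66 to 75, and 45.8% to 50.9% of probes per array were well above background by the scanner's own test. Values of any pair of arrays correlated across probes at 0.986 to 0.996, and the median within-group SD was 0.15. All arrays lay on 1 slide, with control replicates 1 and 2 in its first row and the other 4 arrays in its second row. Among B-cell precursor markers, 9 of 10 genes were above background, and VPREB1 was not. T-cell, myeloid and erythroid markers were retained for 3 of 6, 3 of 5 and 2 of 4 genes with a probe, at group means of at most 7.89. Of these, CD2 and CD3E were retained through knockdown arrays alone. MPO and CSF3R, myeloid genes that are described below among RUNX targets, were brighter, at control means of 13.95 and 11.07, while CD3E, CD3G, ELANE, FCGR3A, HBB and AHSP were not well above background on any array.

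Promoters are shown for members whose upstream bases hold the RUNX recognition sequence, and for CBFA2T3, the member with the largest difference. RefSeq start sites on GRCh38.p14 gave 11 promoter entries for 7 of the 9 genes. The 250 bases before each start site were searched for TGTGGT on either strand, where ACCACA is the same site read on the opposite strand. The site was present in 3 of the 11 entries, and in 11.0% of 35116 promoters searched in the same way. RUNX2 (chr6:45328080-45328329, plus strand) held it 2 times, at -191 and -87 from the start site, and RUNX3 (chr1:24965011-24965260, minus strand) held it 2 times, at -131 and -123. Of all promoters searched, 0.97% held 2 or more. The second NCOR1 start site (chr17:16194640-16194889, minus strand), with 23.6% G and C, held it once, at -95. It lies downstream of the first NCOR1 start site, whose upstream bases (72.4% G and C) held none. The second start sites of RUNX2 and RUNX3 held none. The CBFA2T3 promoter (chr16:88941351-88941600, minus strand), 84.4% G and C, held none. The 4 sequences below are given 5′ to 3′ on the gene's strand, with the site in capitals. A match is a description of letters, not of binding.
RUNX2, first start site: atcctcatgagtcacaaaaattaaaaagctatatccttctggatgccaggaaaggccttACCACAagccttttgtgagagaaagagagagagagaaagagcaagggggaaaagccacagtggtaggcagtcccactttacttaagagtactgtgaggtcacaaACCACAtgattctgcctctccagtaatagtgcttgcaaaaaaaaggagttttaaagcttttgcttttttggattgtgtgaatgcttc
RUNX3, first start site: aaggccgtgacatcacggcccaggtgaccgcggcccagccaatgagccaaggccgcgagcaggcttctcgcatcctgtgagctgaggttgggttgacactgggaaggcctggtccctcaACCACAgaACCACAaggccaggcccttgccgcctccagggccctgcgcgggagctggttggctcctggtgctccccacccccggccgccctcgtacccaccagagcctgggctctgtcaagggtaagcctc
NCOR1, second start site: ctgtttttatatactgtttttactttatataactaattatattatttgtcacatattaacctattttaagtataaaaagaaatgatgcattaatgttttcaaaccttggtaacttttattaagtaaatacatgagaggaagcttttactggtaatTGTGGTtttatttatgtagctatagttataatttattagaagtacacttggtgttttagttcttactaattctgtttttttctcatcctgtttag
CBFA2T3: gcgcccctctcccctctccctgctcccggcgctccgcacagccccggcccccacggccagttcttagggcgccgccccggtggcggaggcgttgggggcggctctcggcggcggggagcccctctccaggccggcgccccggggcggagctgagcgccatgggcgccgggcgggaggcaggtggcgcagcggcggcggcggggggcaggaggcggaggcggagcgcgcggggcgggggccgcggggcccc

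The parts of the targeted transcript are described first. The study itself assayed the knockdown in REH cells by Western blot and RT-qPCR, and reports that the fusion was silenced. Its authors reason that this hairpin acts only on the fusion, as the other ETV6 allele is deleted. Catalogue probes are assigned to single genes, so the fusion could be read only through its parts, and the sources used here do not give where in ETV6 the probes lie or whether that stretch is kept in the fusion. ETV6 (A_33_P3356325) gave 7.91, 8.05 and 8.37 in the control arrays and 7.49, 7.46 and 7.29 in the knockdown arrays. Groups did not overlap, and the difference was -0.70 on the log2 scale (SE 0.14, n = 3 and 3, adjusted p = 0.0525 by limma, and 0.0529 with replicates paired). Among 18 alternatives in processing it was lower in each and passed the threshold in 3. The other ETV6 probe stayed at background throughout. RUNX1, whose transcripts from the intact allele and from the fusion share sequence, was read by 5 probes. Their differences ran from -0.26 to 0.04 with adjusted p from 0.516 to 0.935, and none was called. Scaling the arrays to their spike-in controls instead raised all probes about alike, with the median of all probes at 0.35 in place of 0.00, so that small negative differences became positive without a change relative to other probes. The 4 negative RUNX1 differences did so.

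RUNX2 and RUNX3, the other DNA-binding members of the family, were not above background in either group at the threshold used here. RUNX2 (A_33_P3316508) read 5.06, 5.25 and 5.10 in control and 5.08, 4.97 and 5.19 in knockdown. Background thresholds of the 6 arrays lay between 5.66 and 6.15 on the same scale, and raw intensities of this probe were 47 to 53 against a median of 42.3 to 48 for negative control spots. One RUNX3 probe (A_23_P51231) read 5.15, 4.98 and 5.10 in control and 5.19, 4.97 and 5.43 in knockdown. The other RUNX3 probe (A_33_P3221748) came closest to the threshold, at 5.49, 5.65 and 5.14 in control and 5.22, 5.57 and 5.19 in knockdown. RUNX1T1 (A_23_P216307), the ETO gene itself and the fusion partner of RUNX1 in another leukemia, read 4.64, 5.09 and 4.93 in control and 5.06, 4.70 and 5.43 in knockdown. In these 4 probes no array passed its threshold or the scanner's test, the groups overlapped, and no fold change is given. With a lower threshold, set on raw intensity and chosen after seeing the data, 1 of the RUNX3 probes was tested and was not called. RUNX2 and RUNX1T1 rested on 1 probe each.

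**Figure D1:**
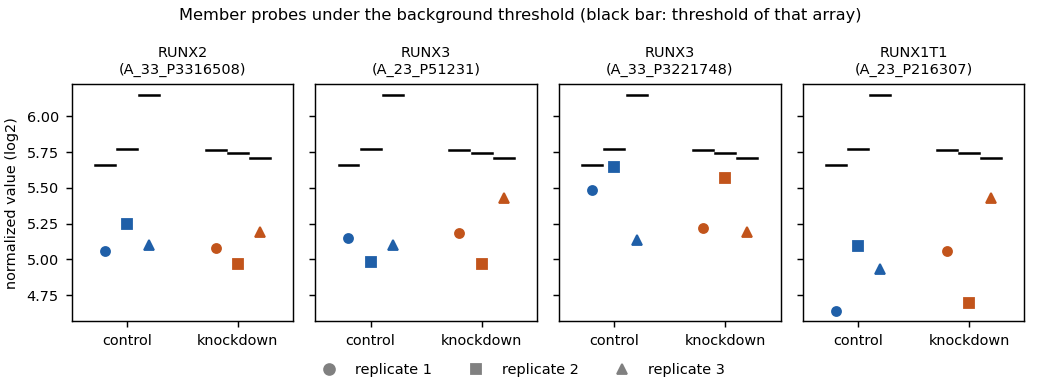
Normalized values (log2) of the 4 member probes under background, by group, with 1 marker per array and the replicate number as its shape; the black bar over each marker is that array's background threshold, 5.66 to 6.15. Every marker of RUNX2, RUNX3 and RUNX1T1 lies under its bar in both groups.

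CBFB, the partner subunit, was above background on all arrays. Its probe (A_23_P113634) was spotted 4 times per array, and the SD between these spots was 0.05 to 0.16. CBFB gave 12.65, 12.80 and 12.68 in control and 12.84, 12.97 and 12.91 in knockdown. Knockdown values all lay above control values, by a small margin. The difference was 0.19 (SE 0.10, 95% interval -0.03 to 0.42, adjusted p = 0.469 by limma), and it stayed positive and uncalled in 18 of 18 alternatives.

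Of the ETO family, CBFA2T3 (MTG16, or ETO2) was the member with the largest difference. Its probe (A_23_P500741) read 15.61, 15.43 and 15.33 in control and 15.20, 14.80 and 14.58 in knockdown. Every knockdown array was under every control array, and within replicate numbers the differences were -0.41, -0.63 and -0.74. Means were 15.46 ± 0.14 (SD, n = 3) and 14.86 ± 0.31 (SD, n = 3), a difference of -0.59 (SE 0.17, 95% interval -0.98 to -0.21), or 0.662 of control (0.508 to 0.863). In size it exceeded 96.4% of all retained probes. Adjusted p was 0.166 by limma without pairing and 0.0319 with replicate number as a block, where the SE was 0.10. A two-sided exact permutation test of this probe alone gave p = 0.1, the smallest that 3 against 3 arrays allow. In RNA of bulk sorted cells, fewer cells of a type and less RNA per cell cannot be told apart.

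Replicate 1 was the array pair in which CBFA2T3 differed least. Without knockdown replicate 1 the difference was -0.765 with adjusted p = 0.0348 by limma, and without both arrays numbered 1 it was -0.687 with adjusted p = 0.0344. CBFA2T3 was higher on the arrays numbered 1 than on the others by 0.37, over both groups, with adjusted p = 0.0960. On the raw scale knockdown replicate 1 (44150) was level with control replicates 2 (44110) and 3 (43827), while knockdown replicates 2 (26420) and 3 (22394) were lower. Scaling to spike-in controls gave -0.248 (adjusted p = 0.419, from an SE shared with CBFB and CBFA2T2), with the median of all probes at 0.35. Within the second slide row alone the knockdown mean was 0.47 under control replicate 3, and with slide row as a term the adjusted p was 0.786. CBFA2T3 was lower in all 18 alternatives and passed the threshold in 3 of them, and the part of replicate and slide row in the difference was not tested.

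**Figure D2:**
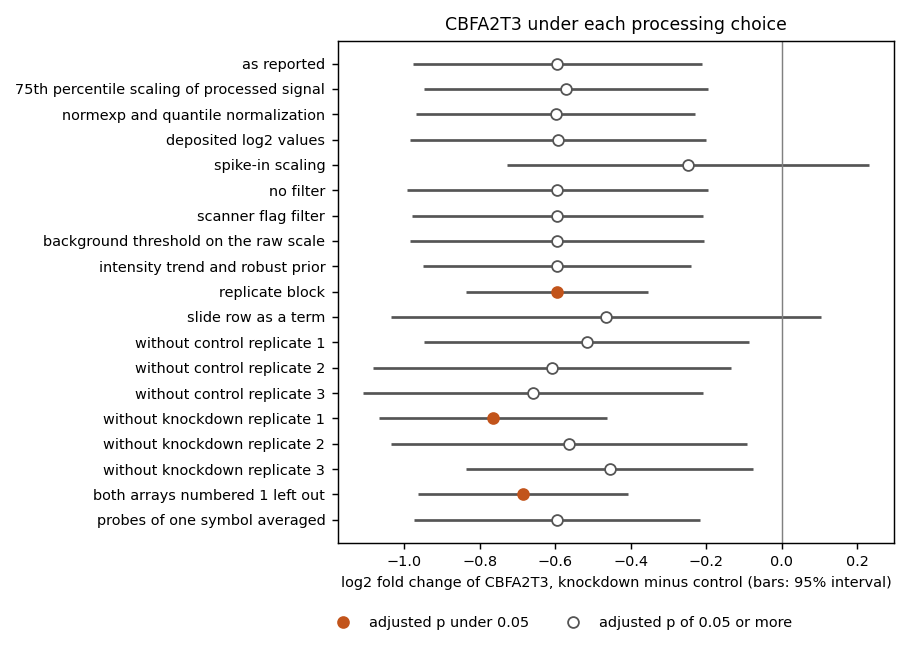
Difference of CBFA2T3 (log2, knockdown minus control; bars, 95% interval) as reported and under each of 18 alternatives in processing, with filled markers where the adjusted p was under 0.05. All values lie under 0, from -0.765 to -0.248, and 3 are filled.

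CBFA2T2 (MTGR1), the other ETO member above background, was read by 2 probes with the same accession. A_23_P502882 gave 9.23, 9.04 and 8.998 in control and 9.32, 8.95 and 8.98 in knockdown. A_33_P3265950 gave 8.40, 8.19 and 8.29 in control and 8.31, 8.18 and 7.98 in knockdown. Groups overlapped in both. The first probe differed by -0.01 (95% interval -0.31 to 0.30, adjusted p = 0.988 by limma) and the second by -0.14 (95% interval -0.41 to 0.14, adjusted p = 0.690). With spike-in scaling both were positive but under the median of all probes, 0.35.

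NCOR1, the corepressor that holds HDAC3 in its complex, was read by 3 probes, none of which was called. A_24_P204214 gave 13.06, 13.08 and 12.97 in control and 12.92, 12.84 and 12.46 in knockdown. Its knockdown arrays all lay under the control arrays, and the difference was -0.30 (SE 0.14, 95% interval -0.61 to 0.02, adjusted p = 0.429 by limma). A_24_P237661, which carries another accession of the gene, gave 9.08, 9.04 and 8.82 in control and 8.82, 8.89 and 8.49 in knockdown. That difference was -0.25 (SE 0.14, 95% interval -0.56 to 0.06, adjusted p = 0.509), and the groups overlapped. A_23_P141651 gave 9.28, 9.26 and 9.17 in control and 9.22, 9.23 and 9.16 in knockdown, a difference of -0.04 (SE 0.09, 95% interval -0.24 to 0.17, adjusted p = 0.910). Knockdown replicate 3 was the lowest array in each of the 3 probes. With spike-in scaling the 3 differences were positive, at 0.0516, 0.0964 and 0.312, and stayed under the median of all probes, 0.35.

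SIN3A, the scaffold of the SIN3 histone deacetylase complex, read higher after knockdown. Its probe (A_23_P367676) gave 10.82, 10.88 and 10.86 in control and 11.18, 11.04 and 11.08 in knockdown. Control arrays were within 0.06 of each other and all knockdown arrays were above them. The difference was 0.25 (SE 0.09, 95% interval 0.03 to 0.46), with an unadjusted p of 0.0279 and an adjusted p of 0.314 by limma. It was positive and uncalled in 18 of 18 alternatives. HDAC3, the deacetylase of the NCOR1 complex (A_33_P3309929), gave 12.91, 13.14 and 13.20 in control and 12.85, 12.82 and 13.13 in knockdown. Groups overlapped, and the difference was -0.15 (SE 0.13, 95% interval -0.44 to 0.15, adjusted p = 0.689), or 0.199 with spike-in scaling, under the median of all probes.

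**Figure D3:**
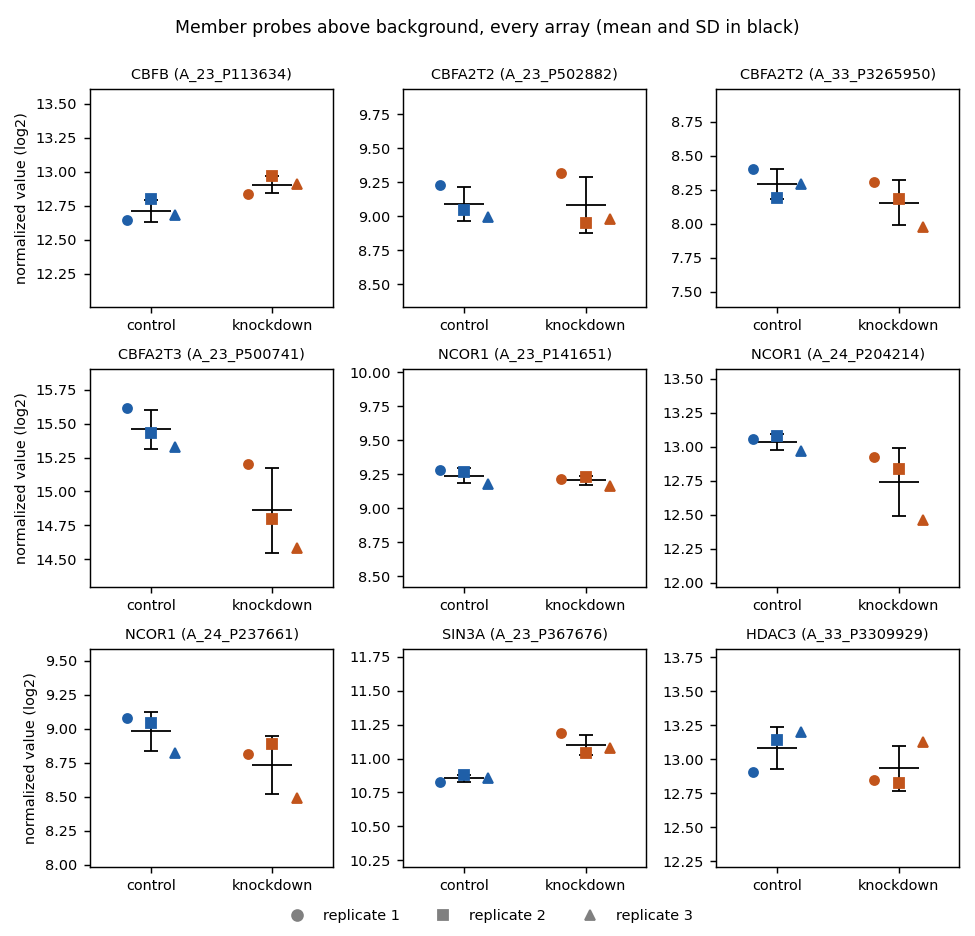
Normalized values (log2) of the 9 member probes above background, by group, with 1 marker per array, the replicate number as its shape, and the group mean with its SD (n = 3) in black; each panel spans 1.6 units. CBFA2T3 and NCOR1 A_24_P204214 sit lower in every knockdown array, CBFB and SIN3A higher, and the other 5 probes overlap between groups.

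Counts over the 9 retained member probes are set beside those over all retained probes. None was called without pairing (1.75% of all probes) and 1 with pairing (3.77%). Unadjusted p was under 0.05 for 2 member probes, CBFA2T3 and SIN3A, and for 12.6% of all probes. Groups did not overlap in 4 member probes (2 lower, 2 higher) and in 19.0% of all probes with a value on every array (9.67% lower, 9.34% higher). Differences were negative in 7 and positive in 2, with a median of -0.14 against 0.00 over all probes. With spike-in scaling 1 was negative and 8 were positive, and the median of all probes was 0.35. The contrast of replicate 1 against replicates 2 and 3 called no member probe and 5.63% of all probes. In the fit as reported, the 95% interval of the difference lay within 1 log2 unit of 0 for all 9 probes. The interval of CBFA2T3 reached -1.11 without control replicate 3, and those of CBFB and SIN3A reached 1.02 and 1.07 with spike-in scaling. The spike-in fit gave CBFB, CBFA2T2 and CBFA2T3 the same SE (0.245), so its intervals and p-values do not measure each probe's own spread.

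**Figure D4:**
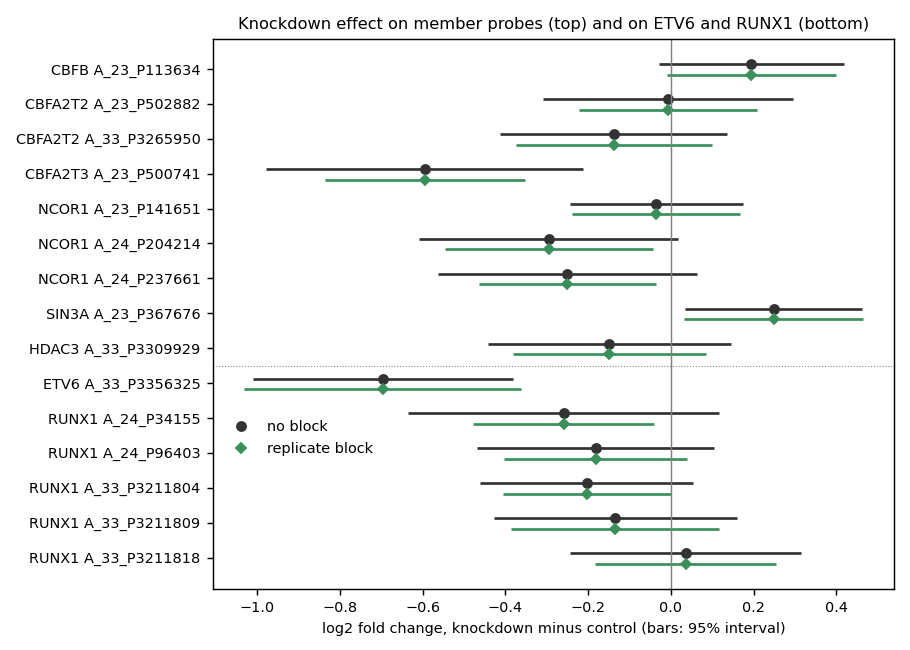
Differences (log2, knockdown minus control) with 95% intervals for the 9 retained member probes above the dotted line and for ETV6 and RUNX1 below it, without pairing (circles) and with replicate number as a block (diamonds). CBFA2T3 at -0.59 and ETV6 at -0.70 lie farthest from 0, and pairing narrows the interval of CBFA2T3 but not that of ETV6.

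Partners of the members were read from lists of complexes. In the NCoR complex, 8 probes of 4 genes were tested and 2 were called, against 1.75% of all probes. Both were of CORO2A, a coronin family protein found with that complex. CORO2A (A_23_P146444) gave 9.57, 9.72 and 9.69 in control and 8.42, 8.62 and 8.59 in knockdown. All knockdown arrays lay about 1 unit lower, and the difference was -1.12 (SE 0.10, adjusted p = 0.00181 by limma). The second CORO2A probe (A_23_P135061) differed by -0.91 (SE 0.11, adjusted p = 0.00661), and by -0.985 in the fit that held slide row (adjusted p = 0.0529) and -0.562 with spike-in scaling (adjusted p = 0.157). TBL1X, TBL1XR1 and GPS2, the others of this list, were not called, and the median of the list was 0.08.

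None of 28 probes for 20 genes of the SIN3 complex was called, with a median of 0.03. The lowest p in that list belonged to PHF12, a PHD finger subunit, at 0.26 (adjusted p = 0.459 by limma). Among the TLE corepressors, which bind the carboxy-terminal end of RUNX proteins, none of 9 probes of 6 genes was called, and the median was 0.04. TLE2 gave 6.68, 6.73 and 6.49 in control and 7.04, 7.27 and 6.97 in knockdown. All TLE2 values of the knockdown were higher, by 0.46 (SE 0.12, adjusted p = 0.132, and 0.0474 with pairing). A TLE6 probe (A_23_P208937), named after its values were seen, was the other one called with pairing, at 0.48 (adjusted p = 0.0470). The fit with pairing called 3.77% of all probes.

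Other histone deacetylases gave 13 tested probes of 8 genes, none called, with a median of 0.06. HDAC6, a mainly cytoplasmic deacetylase of tubulin, was nearest to a call. One HDAC6 probe (A_23_P250455) read 11.01, 10.88 and 10.91 in control and 11.52, 11.35 and 11.38 in knockdown, a difference of 0.49 (SE 0.10, adjusted p = 0.0580 by limma, and 0.0349 with pairing). A second, dimmer HDAC6 probe (A_33_P3320619) differed by 0.07 (adjusted p = 0.904). Coactivators and modifiers of RUNX proteins gave 16 tested probes of 13 genes, none called, with a median of 0.07. CDK6, the cell cycle kinase that binds RUNX1, had the lowest p there, at 0.34 (SE 0.11, adjusted p = 0.215).

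Genes known as RUNX targets gave 14 tested probes of 13 genes, with a median of -0.03. MPO and CSF3R fell and BLK rose, and ITGAL, which also passed the test, was retained through its control arrays alone and is given below by its values. MPO, the myeloperoxidase of neutrophil granules, gave 14.02, 13.97 and 13.86 in control and 12.30, 11.69 and 11.82 in knockdown. The knockdown was lower by more than the spread of either group, at -2.02 (SE 0.16, adjusted p = 0.00107 by limma), or 0.247 of control. BLK, a Src family kinase of B cells, gave 11.14, 11.24 and 11.18 in control and 12.36, 12.42 and 12.26 in knockdown. BLK rose by 1.16 (SE 0.09, adjusted p = 0.00112), or 2.23 times control. MPO and BLK passed the threshold in 18 of 18 alternatives.

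CSF3R, the receptor of granulocyte colony-stimulating factor, gave 11.56, 10.84 and 10.81 in control and 10.09, 9.21 and 9.19 in knockdown. Replicate 1 was the highest array of CSF3R in both groups, and the difference was -1.58 (SE 0.29, adjusted p = 0.0383 by limma), or 0.336 of control. ITGAL, the alpha chain of the leukocyte integrin LFA, gave 6.69, 6.38 and 6.27 in control and 5.83, 5.64 and 5.47 in knockdown. It was over the background threshold on all 3 control arrays and on 1 of 3 knockdown arrays. The control arrays alone retained it, and its test is not used. SPP1, which was not called, was likewise retained through control arrays alone and enters the median of the list. CSF3R was lower in each replicate pair, with differences of -1.47, -1.63 and -1.62, and with pairing its adjusted p was 0.00132 (SE 0.09). The CSF3R difference lay between -1.87 and -1.23 in all 18 alternatives. Its adjusted p was over the threshold in 10 of them, among them no filter, slide row as a term and leaving out control replicate 1, 2 or 3 or knockdown replicate 2 or 3 (adjusted p by limma of 0.0784 to 0.171 for these arrays).

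**Figure D5:**
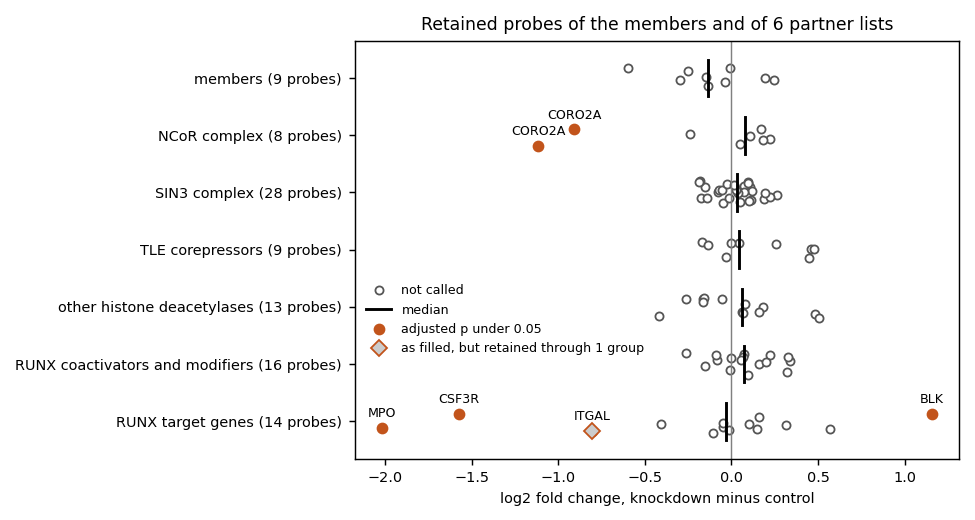
Differences (log2, knockdown minus control) of every retained probe of the members and of 6 lists of partners and targets, 1 circle per probe, filled where the adjusted p was under 0.05 and as a grey diamond where such a probe was retained through 1 group only, with the median of each list as a black line. Medians lie between -0.14 and 0.08, the 5 filled probes belong to CORO2A, MPO, CSF3R and BLK, and the diamond is ITGAL, whose test is not used.

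B-cell precursor markers, given beside these lists because they describe the cells, were higher in 13 of 14 probes, with a median of 0.22. Without knockdown replicate 1, or without both arrays numbered 1, 10 were higher and 4 lower, while with percentile scaling all 14 were higher. None of the 14 was called (limma), and 4 were called with pairing (3.77% of all probes), namely CD22, CD79B and both probes of IGLL1. Their part in the values of the members was not tested.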

How the data were processed

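REH cells with control or fusion shRNA were profiled on 6 arrays, 3 per group by sample title. The authors extracted raw spot intensity with Feature Extraction 10.7.1.1, and the deposited scanner files also hold other values, such as flags. The authors deposited normalized log2 values (variance stabilization, filter against negative controls) of 27869 probes, used here as an alternative. They correlated with the values computed here at 0.99905 to 0.99968 per array.

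The variance-stabilising model was rewritten (R 4.3.3) and fitted to 20000 spots by least trimmed squares (quantile 0.9) on raw median intensity. Spots of 1 probe entered as their mean. Probes were kept if their log2 value exceeded 1.1 times the 0.95 quantile of the log2 values of 308 negative control spots. At least 2 of 3 arrays of a group had to pass. The factor acts on log2 values, so this cut-off is stricter than the same factor on raw intensity. Groups were compared with limma 3.58.1 (lmFit, eBayes) and Benjamini-Hochberg adjustment over 27454 probes, with calls at 0.05. The script was tested on simulated data. The small number of arrays limits the precision.

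Same-numbered arrays, numbered in the titles, deviated together (correlations 0.427, 0.288 and 0.204), and replicate number was a block in an alternative. Correlations between differently numbered arrays are not given here, so these values cannot show that the numbers mark pairs. The labels do not name pairs either, and the pairing is an assumption. All probes of the members were named, and those of ETV6 and RUNX1 were read as context. From each list the called genes or the one with the lowest p were named. Members and lists were chosen with earlier results of these data known. Gene names come from the files' accessions matched to RefSeq, and all 13 member probes matched. One gene of a partner list is not reported here.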

Additional observations from a re-analysis of the deposited data

How the results depend on the processing

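In all, 18 alternatives were run. A threshold on raw intensity was chosen after seeing the data, and the planned mean spot intensity was not run because the files used hold the median. Across all probes 480 were called, and the count was 1028 with spike-in scaling, 222 with no filter, 1034 with the replicate block, 228 with slide row as a term, and 192 to 535 with 1 array left out. The member count of 0 became 1 with the replicate block and with both arrays numbered 1 left out, and was 0 to 1 with 1 array left out, each time CBFA2T3. The block changed no other member call. Partner lists held 6 calls, with ITGAL, whose test is not used, and 10 with spike-in scaling and 3 with slide row.

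Spike-in scaling moved all probes up about alike (median 0.35), which made differences positive, without a change relative to other probes, for CBFA2T2 (0.34 and 0.209), NCOR1 (0.312, 0.0516 and 0.0964), HDAC3 (0.199) and RUNX1 (0.0878, 0.165, 0.144 and 0.213), none called. CBFA2T2 A_23_P502882 was also 0.0236 with percentile scaling, 0.000224 with normexp, 0.0853 with slide row and -0.126 to 0.0628 with 1 array left out. NCOR1 A_23_P141651 was 0.0282 with slide row. The mean over the 5 RUNX1 probes was -0.149, against a positive value of A_33_P3211818 alone, and with 1 array left out that probe ran from -0.0265 to 0.126. The cause was not tested. Array number and background limit the dim probes of RUNX2, RUNX3 and RUNX1T1.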
